A study of Mus musculus with 3 samples.

Results

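The 10 genes described here belong to the contractile and mechanically responsive programme of fibroblasts. They are Acta2, Tagln, Cnn1 and Myl9 of the actomyosin apparatus, Vim, S100a4 and Tm4sf1 of the mesenchymal cytoskeleton and cell surface, and Ankrd1, Ctgf and Cyr61, which are classical targets of the co-activator YAP. The genes were chosen by name, with earlier results of these data known. Every probe whose RefSeq transcript maps to one of them was read. This gave 11 probes for 10 genes among 20284 named genes on the array. All 10 were well above background on at least 1 array, as were 16048 named genes in total. Ctgf and Cyr61 are the names used here for the genes now called Ccn2 and Ccn1.

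RNA from mouse embryonic stem cell cultures was hybridised to 3 one-colour arrays, 1 for each group. The array labelled Pcgf6KO+ Pcgf6_flag holds Pcgf6KO cells made to carry Pcgf6_flag by lentiviral infection, the Pcgf6KO array holds cells in which Pcgf6 was disrupted with Cas9, and the wildtype array holds wildtype cells. Pcgf6 encodes a subunit of a variant Polycomb repressive complex. All 3 cultures were labelled male and shared their growth conditions, with serum, leukemia inhibitory factor and a layer of mouse embryonic fibroblasts stopped from dividing with mitomycin C. The sources used here do not say whether a line is a single clone. Since 1 array stands for each group, no test between groups could be made, no error between cultures is known, and every difference below is between arrays.

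The labels give the cell type as embryonic stem cell, but the word muscle appears in their source name. All 16 pluripotency markers examined were well above background on every array, and their summed signal was 200.4 on the array labelled Pcgf6KO+ Pcgf6_flag, 174.2 on the Pcgf6KO array and 198.9 on the wildtype array, in units of the 75th percentile of each array. Of 15 striated muscle markers, 12 were well above background on every array, whereas Myog, Myf5 and Ckm were on none. The counts of both lists are to be read beside 14143 of 20284 named genes that were well above background on every array. The contractile and mechanically responsive genes described here are not counted in the 14143. The myogenic factor gene Myod1, named after its values were seen, read 13807 on the array labelled Pcgf6KO+ Pcgf6_flag, 11356 on the Pcgf6KO array and 10365 on the wildtype array, and the cardiac myosin gene Myh6 read 6929, 22826 and 10075 on the same arrays. The single Pcgf6 probe gave a processed signal of 6202 on the array labelled Pcgf6KO+ Pcgf6_flag, 7704 on the Pcgf6KO array and 14333 on the wildtype array. After scaling, Pcgf6 differed by -1.03 on the log2 scale between Pcgf6KO and wildtype and by -0.42 between the array labelled Pcgf6KO+ Pcgf6_flag and Pcgf6KO. The introduced Pcgf6 was therefore not seen as a higher signal, and the part of the transcript this probe reads was not compared with the edited or introduced sequence, so it checks neither label. The array labelled Pcgf6KO+ Pcgf6_flag is for that reason called by its label throughout.

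In fibroblasts, the contractile genes are largely controlled by serum response factor (SRF) and its actin-sensing co-activators, the MRTFs, which act through CArG boxes. YAP and its relative TAZ (Wwtr1) have no DNA-binding domain and act mainly through TEAD factors, which recognise MCAT elements, when the kinases of the Hippo pathway do not hold them in the cytoplasm. Ankrd1, Ctgf and Cyr61 are widely used as readouts of YAP activity, and embryonic fibroblasts in culture, which spread on stiff plastic, carry both programmes.

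The 300 bases around the annotated transcription start, 250 before and 50 after, were available in RefSeq (GRCm38.p6) for 8 of the 10 genes. Tagln and Ctgf have none here. The 4 windows below are shown because they hold every match found in these 8 windows. Acta2 and Ankrd1 were more than 2-fold lower in each comparison, and Myl9 and Cyr61 were not. Capitals mark the matches: the MCAT motif GGAATG (read as CATTCC where it lies on the other strand), the CArG box, and its CArG-like variant in which 1 of the 6 central bases is C or G.
Acta2, chr19:34255324-34255623, minus strand: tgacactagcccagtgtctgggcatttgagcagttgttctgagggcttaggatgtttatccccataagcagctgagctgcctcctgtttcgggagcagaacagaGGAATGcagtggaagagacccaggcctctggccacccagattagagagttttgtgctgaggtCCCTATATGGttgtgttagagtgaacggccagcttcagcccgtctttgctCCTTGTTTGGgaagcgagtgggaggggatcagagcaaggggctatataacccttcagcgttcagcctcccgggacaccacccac
Ankrd1, chr19:36119795-36120094, minus strand: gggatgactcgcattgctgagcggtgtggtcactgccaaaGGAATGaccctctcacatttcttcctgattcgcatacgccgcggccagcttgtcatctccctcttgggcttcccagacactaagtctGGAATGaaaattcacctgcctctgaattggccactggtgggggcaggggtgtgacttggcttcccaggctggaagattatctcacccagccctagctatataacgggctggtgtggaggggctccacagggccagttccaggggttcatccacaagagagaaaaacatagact
Myl9, chr2:156775214-156775513, plus strand: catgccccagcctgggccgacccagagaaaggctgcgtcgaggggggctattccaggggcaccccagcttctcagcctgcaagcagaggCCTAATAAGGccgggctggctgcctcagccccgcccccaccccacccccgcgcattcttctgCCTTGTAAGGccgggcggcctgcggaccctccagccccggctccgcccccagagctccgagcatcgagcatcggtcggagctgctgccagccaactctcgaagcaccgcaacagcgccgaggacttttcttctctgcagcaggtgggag
Cyr61, chr3:145649936-145650235, minus strand: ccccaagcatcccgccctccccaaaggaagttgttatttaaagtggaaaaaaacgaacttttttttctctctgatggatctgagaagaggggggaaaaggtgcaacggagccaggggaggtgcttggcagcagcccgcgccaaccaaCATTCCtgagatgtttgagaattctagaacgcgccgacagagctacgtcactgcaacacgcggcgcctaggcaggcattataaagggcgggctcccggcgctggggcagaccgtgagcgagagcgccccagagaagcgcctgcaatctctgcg

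Counted from the annotated start, the Acta2 window held an MCAT motif at -146 to -141 and CArG-like boxes at -84 to -75 and -34 to -25. Ankrd1 held MCAT motifs at -210 to -205 and -123 to -118, and Cyr61 held one on the antisense strand at -103 to -98. Myl9 held the only CArG box, at -161 to -152, and a CArG-like box at -99 to -90. No match to these letters was found in the windows of Cnn1, Vim, S100a4 and Tm4sf1. Both strands were searched, and no match overlapped another. Among 32851 promoter windows of the same length, 1.63% held a CArG box, 8.50% a CArG-like box and 14.7% an MCAT motif. The motif map shows that the genes with matches include both those that were more than 2-fold lower and those that were not.

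**Figure D1:**
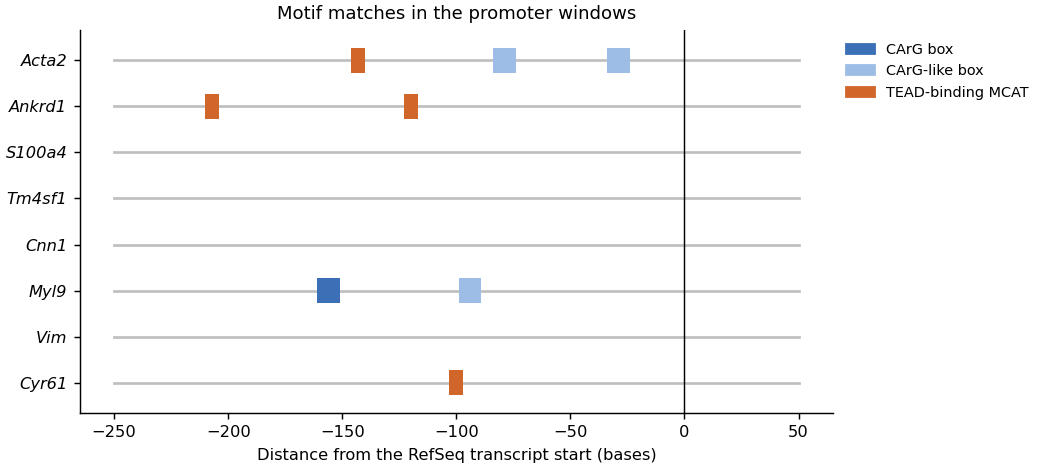
Matches to the CArG box, the CArG-like box and the MCAT motif in the RefSeq promoter windows of the 8 genes that have one, against distance from the annotated start in bases. Acta2 and Ankrd1, more than 2-fold lower in every comparison, hold matches, and so do Myl9 and Cyr61, which stayed within 2-fold.

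Signals below are the processed signals of the scanner files, which are linear spot intensities after background subtraction. A level is log2 of that signal minus log2 of the 75th percentile of its array, which was 4619 on the array labelled Pcgf6KO+ Pcgf6_flag, 4292 on the Pcgf6KO array and 3917 on the wildtype array, and a difference is the first-named array's level minus the second's. Spots repeated on one array had a pooled SD of 0.09 on the log2 scale on each of the 3 arrays, which measures technical spread only. Probes were well above background at 60.7%, 66.0% and 65.3% in the same order of arrays. Where a probe was not well above background on 1 of the 2 arrays compared, the brighter signal was divided by the dim array's floor (the lowest signal on it that passes as well above background) or, if higher, by the probe's own signal there, which gives a bound written as "at least N-fold". These floors were 103, 53.4 and 52.7, so bounds against the array labelled Pcgf6KO+ Pcgf6_flag are the loosest.

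The 10 genes split into a group of 4 with large differences and a group of 6 with small ones. Acta2, Ankrd1, S100a4 and Tm4sf1 were at least 2-fold lower in Pcgf6KO than in wildtype and lower again on the array labelled Pcgf6KO+ Pcgf6_flag, whereas Tagln, Cnn1, Myl9, Ctgf, Cyr61 and Vim stayed within 2-fold in each comparison. For Pcgf6KO against wildtype, 4 of 10 were at least 2-fold lower, where 3.56% of 15879 genes were, and 0 were at least 2-fold higher, where 6.61% of genes were. For the array labelled Pcgf6KO+ Pcgf6_flag against Pcgf6KO, 4 of 10 were lower, 1 of them as a bound, beside 10.02% of 15757 genes, and 0 were higher, beside 6.15%. For the array labelled Pcgf6KO+ Pcgf6_flag against wildtype, 4 of 10 were lower, again 1 as a bound, beside 6.28% of 15587 genes, and 0 were higher, beside 5.83%. The median differences of the 10 genes in these comparisons were -0.58, -0.61 and -0.82, beside medians of -0.02, 0.00 and -0.02 over all genes. The 10 genes were chosen with earlier results of these data known, so these counts and medians describe the set and do not test it. Each pair of comparisons shares 1 array, so their counts are not independent of each other. The array labelled Pcgf6KO+ Pcgf6_flag lay alone on slide 2 and the others shared slide 1, so slide and group cannot be told apart in the 2 comparisons that use it. In the same comparisons, 10 of 19, 10 of 16 and 16 of 19 measured fibroblast markers were at least 2-fold lower, and their part in these differences was not tested. In bulk RNA such as this, fewer cells of a type and less RNA per cell cannot be told apart.

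**Figure D2:**
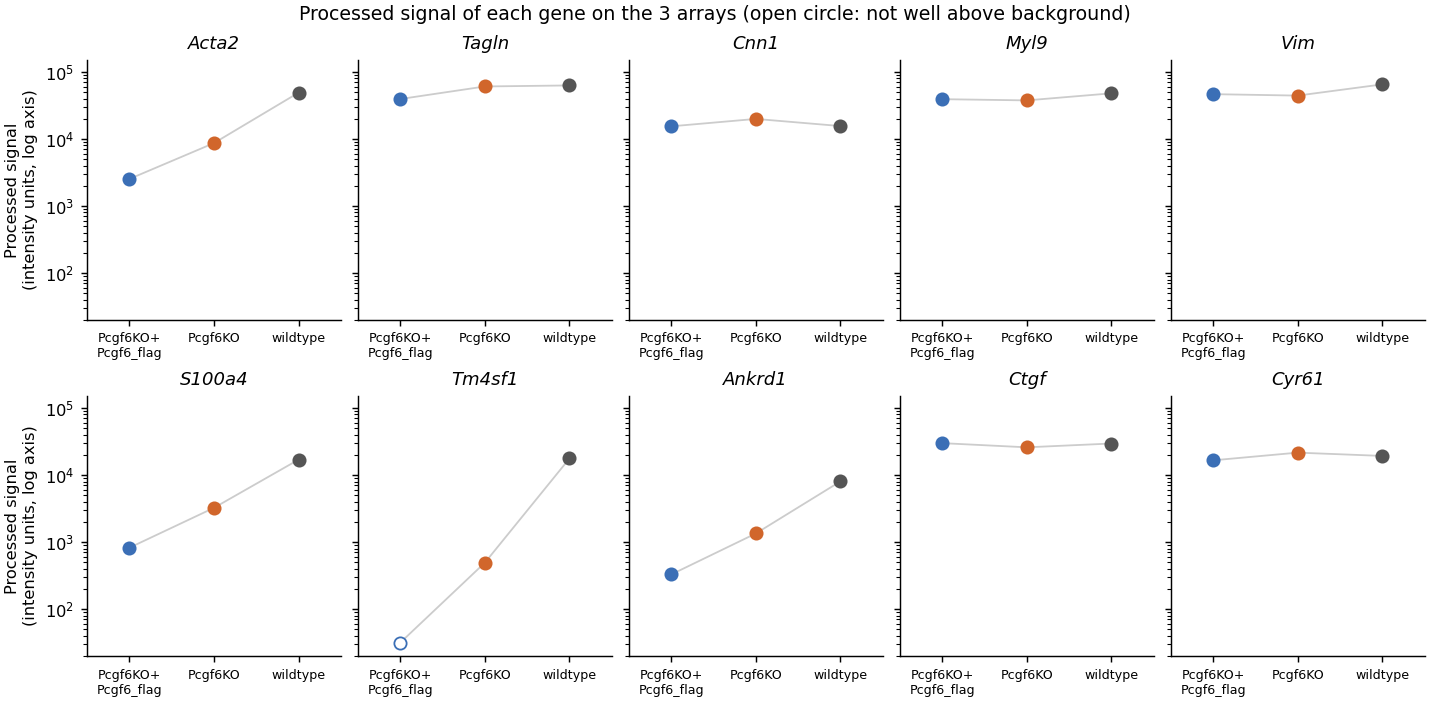
Processed signal, in intensity units on a log axis, of each of the 10 genes on the array labelled Pcgf6KO+ Pcgf6_flag, the Pcgf6KO array and the wildtype array, with 1 point per array, an open circle where the probe was not well above background and lines that only join a gene's points. Acta2, S100a4, Tm4sf1 and Ankrd1 are lowest on the array labelled Pcgf6KO+ Pcgf6_flag and highest on the wildtype array, while the other 6 genes stay between 15420 and 65108.

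Of the contractile genes, Acta2, which encodes smooth muscle alpha-actin and marks activated fibroblasts, differed most. Its processed signal was 2525 on the array labelled Pcgf6KO+ Pcgf6_flag, 8660 on the Pcgf6KO array and 48959 on the wildtype array. The probe is spotted several times on each array, which gives a direct view of the measurement. On the array labelled Pcgf6KO+ Pcgf6_flag 9 spots were kept and ran from 2392 to 2845 with a median of 2462. On the Pcgf6KO array 10 spots ran from 7989 to 9410 around 8561, and on the wildtype array 10 spots ran from 46169 to 52624 around 49035. The spots of the 3 arrays did not overlap, and their SDs of 0.08, 0.09 and 0.06 on the log2 scale were small beside the differences between arrays. Acta2 was 6.19-fold lower in Pcgf6KO than in wildtype, 3.69-fold lower on the array labelled Pcgf6KO+ Pcgf6_flag than in Pcgf6KO and 22.9-fold lower there than in wildtype.

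**Figure D3:**
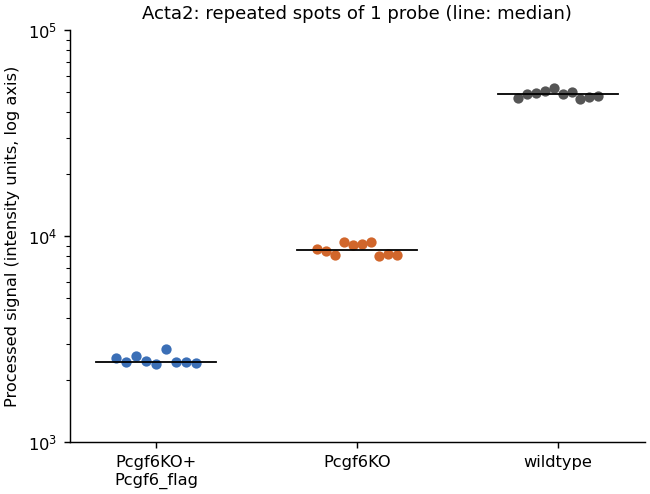
Processed signal of each repeated Acta2 spot, on a log axis, for the array labelled Pcgf6KO+ Pcgf6_flag with 9 spots and the Pcgf6KO and wildtype arrays with 10 spots each. The spots form 3 tight groups with medians of 2462, 8561 and 49035 and no overlap, and they are technical repeats within an array.

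The other contractile genes were bright on every array and differed little. Tagln, which encodes the actin-binding protein transgelin, had a signal of 39368 on the array labelled Pcgf6KO+ Pcgf6_flag, 60617 on the Pcgf6KO array and 62810 on the wildtype array. Its difference was -0.18 between Pcgf6KO and wildtype, -0.73 between the array labelled Pcgf6KO+ Pcgf6_flag and Pcgf6KO and -0.91 between the array labelled Pcgf6KO+ Pcgf6_flag and wildtype, a value that reached -1.04, past 2-fold, when arrays were scaled to their medians. Cnn1, the gene of calponin, an actin-binding inhibitor of myosin ATPase, read 15420 on the array labelled Pcgf6KO+ Pcgf6_flag, 19879 on the Pcgf6KO array and 15558 on the wildtype array. Its highest signal was that of Pcgf6KO, with a difference of 0.22 from wildtype, then -0.47 for the array labelled Pcgf6KO+ Pcgf6_flag against Pcgf6KO and -0.25 against wildtype. Myl9, a regulatory light chain of smooth muscle and nonmuscle myosin, read 39179 on the array labelled Pcgf6KO+ Pcgf6_flag, 37566 on the Pcgf6KO array and 47880 on the wildtype array. Myl9 differed by -0.48 between Pcgf6KO and wildtype and by -0.53 between the array labelled Pcgf6KO+ Pcgf6_flag and wildtype, while its difference of -0.05 between the array labelled Pcgf6KO+ Pcgf6_flag and Pcgf6KO changed sign in 2 of 9 alternative settings.

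Among the filament, motility and surface genes, Vim stayed within 2-fold and S100a4 and Tm4sf1 did not. Vim, the intermediate filament gene of mesenchymal cells, read 46550 on the array labelled Pcgf6KO+ Pcgf6_flag, 44296 on the Pcgf6KO array and 65108 on the wildtype array. It was 1.61-fold lower in Pcgf6KO than in wildtype and 1.65-fold lower on the array labelled Pcgf6KO+ Pcgf6_flag than in wildtype, and its difference of -0.03 between the array labelled Pcgf6KO+ Pcgf6_flag and Pcgf6KO changed sign in 2 of 9 alternative settings.

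S100a4 encodes a calcium-binding protein that binds nonmuscle myosin and is also called fibroblast-specific protein. Its brighter probe read 821 on the array labelled Pcgf6KO+ Pcgf6_flag, 3236 on the Pcgf6KO array and 16942 on the wildtype array. The gene was 5.73-fold lower in Pcgf6KO than in wildtype, 4.24-fold lower on the array labelled Pcgf6KO+ Pcgf6_flag than in Pcgf6KO and 24.3-fold lower there than in wildtype. A second probe of the same transcript read 579.9 on the array labelled Pcgf6KO+ Pcgf6_flag, 2651 on the Pcgf6KO array and 14904 on the wildtype array. The differences of this probe were -2.62, -2.30 and -4.92, beside -2.52, -2.08 and -4.60 for the brighter probe, so both probes had the same order of arrays and similar steps.

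Tm4sf1, which encodes a membrane protein of the tetraspan L6 family found on spreading and migrating cells, had the largest range of the 10 genes. Its signal was 31.6 on the array labelled Pcgf6KO+ Pcgf6_flag, where it was not well above background, 492 on the Pcgf6KO array and 17648 on the wildtype array. Tm4sf1 was 39.3-fold lower in Pcgf6KO than in wildtype and ranked 9 from the lowest of 15879 genes. On the array labelled Pcgf6KO+ Pcgf6_flag it was at least 5.14-fold lower than in Pcgf6KO and at least 202-fold lower than in wildtype, where it ranked 2 from the lowest of 15587 genes with bounds included. These bounds, -2.36 and -7.66 on the log2 scale, were -1.66 and -6.72 with normexp background correction. With the dim signal itself in place of the floor the differences were -4.07 and -9.37. Its spots on the array labelled Pcgf6KO+ Pcgf6_flag and on the Pcgf6KO array carried a local-background flag, which the scanner software sets where the area around a spot is uneven or unlike its neighbours, so no value remains if such spots are left out.

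The YAP targets did not behave alike. Ankrd1, a cardiac and skeletal ankyrin repeat protein that is strongly inducible by YAP, read 328 on the array labelled Pcgf6KO+ Pcgf6_flag, 1342 on the Pcgf6KO array and 8031 on the wildtype array. It was 6.56-fold lower in Pcgf6KO than in wildtype, 4.40-fold lower on the array labelled Pcgf6KO+ Pcgf6_flag than in Pcgf6KO and 28.9-fold lower there than in wildtype. Its single spot on the array labelled Pcgf6KO+ Pcgf6_flag carried a local-background flag, whereas those on the other arrays did not.

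Ctgf and Cyr61 encode secreted matricellular proteins of the CCN family. Ctgf read 29887 on the array labelled Pcgf6KO+ Pcgf6_flag, 25882 on the Pcgf6KO array and 29505 on the wildtype array, a difference of -0.32 between Pcgf6KO and wildtype. Its difference was 0.10 between the array labelled Pcgf6KO+ Pcgf6_flag and Pcgf6KO and -0.22 against wildtype, the last with the other sign in the unscaled values. Cyr61 read 16561 on the array labelled Pcgf6KO+ Pcgf6_flag, 21571 on the Pcgf6KO array and 19264 on the wildtype array. Its difference of 0.03 between Pcgf6KO and wildtype lay within the spread of repeated spots and changed sign when arrays were scaled to their medians. On the array labelled Pcgf6KO+ Pcgf6_flag, Cyr61 differed by -0.49 from Pcgf6KO and by -0.46 from wildtype. With the main settings, the contrast between Ankrd1 and the CCN pair is therefore one of more than 4-fold against less than 1.5-fold in every comparison. With normexp background correction, Ankrd1 differed by -1.67, not -2.14, between the array labelled Pcgf6KO+ Pcgf6_flag and Pcgf6KO. That is less than 4-fold.

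**Figure D4:**
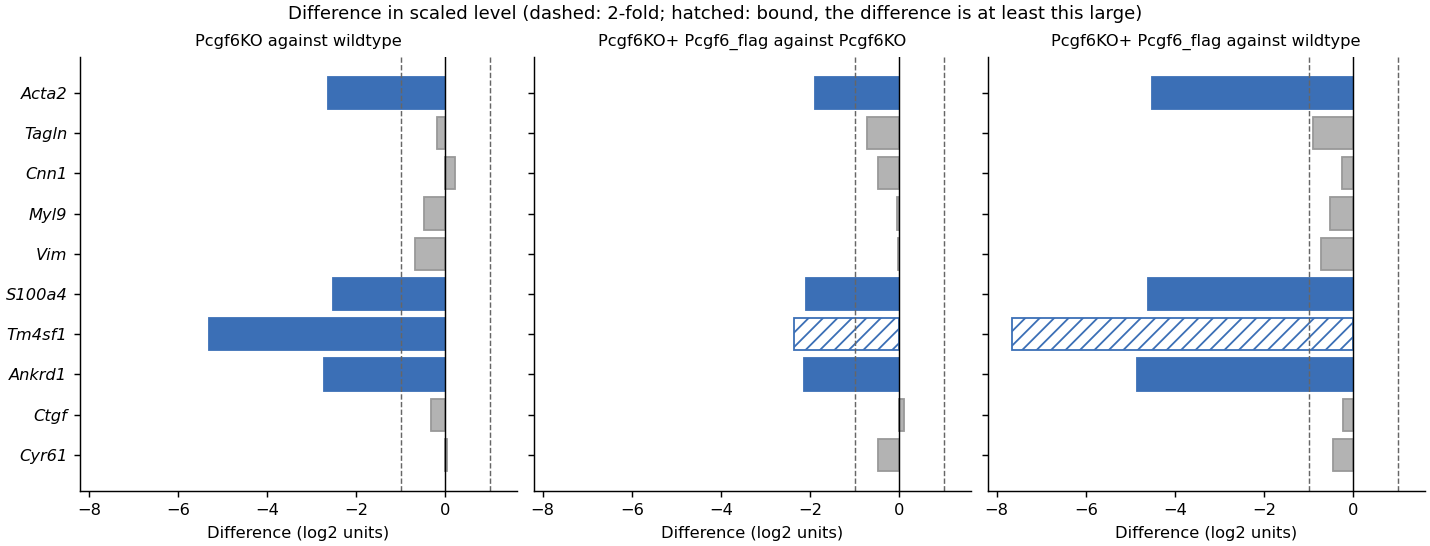
Log2 difference of each of the 10 genes in Pcgf6KO against wildtype, the array labelled Pcgf6KO+ Pcgf6_flag against Pcgf6KO and the array labelled Pcgf6KO+ Pcgf6_flag against wildtype, as bars that start at 0, hatched for bounds, with dashed lines at 2-fold. Acta2, Ankrd1, S100a4 and Tm4sf1 pass the lower line in all 3 comparisons and no gene passes the upper line.

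The named genes closest to the median pattern of the 10 were searched among 14143 genes measured on all 3 arrays. Levels were centred on each gene's mean, where the 10 genes had median values of -0.43 on the array labelled Pcgf6KO+ Pcgf6_flag, -0.15 on the Pcgf6KO array and 0.42 on the wildtype array. The nearest were Olfr965, Frg2f1, Tcte2, Pdzd11 and Oasl1, at Euclidean distances of 0.0920 to 0.0987 over 3 arrays. The likeness rests on 3 points, and the median hides the split into 4 and 6.

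A wider list of 30 contractile and SRF-MRTF target genes, none of them among the 10, showed a similar mixture of a few large and many small differences. In Pcgf6KO against wildtype, at least 2-fold lower levels were seen for 5 of 28 measured genes and higher ones for 0. The median of the list was -0.20. Of all genes, 3.56% were lower and 6.61% higher. Actg2, which encodes smooth muscle gamma-actin, read 278 on the array labelled Pcgf6KO+ Pcgf6_flag, 176 on the Pcgf6KO array and 4034 on the wildtype array. It was 25.1-fold lower in Pcgf6KO than in wildtype but was not lower again, with a difference of 0.55 between the array labelled Pcgf6KO+ Pcgf6_flag and Pcgf6KO. Actg2 and Acta2 are close paralogs, and cross-hybridisation between their probes was not tested.

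Filip1l was 4.02-fold lower in Pcgf6KO than in wildtype, the integrin subunit gene Itga5 2.21-fold and Synpo2, which encodes an actin-bundling protein, 2.09-fold, and Lmod1, of the actin nucleator leiomodin, was at least 2.42-fold lower. The Synpo2 signals were low, at 86.9 on the Pcgf6KO array and 166 on the wildtype array. In the array labelled Pcgf6KO+ Pcgf6_flag against Pcgf6KO, 5 of 27 genes of this list were lower and 1 higher, with a median of -0.12. Of all genes, 10.02% were lower and 6.15% higher in this comparison. Acta1, skeletal alpha-actin, was 2.91-fold lower there, Fhl2 and Fhl1, of the LIM domain family, 2.95-fold and 2.51-fold, and Cald1, the actin-binding caldesmon, 2.37-fold. The integrin subunit gene Itga1 was 2.94-fold lower, and Mrvi1 was at least 2.86-fold higher. Against wildtype, 7 of 28 were lower on the array labelled Pcgf6KO+ Pcgf6_flag and 0 higher, beside 6.28% and 5.83% of all genes. The median was -0.41.

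No regulator of this programme on the list examined was seen to pass 2-fold, in comparisons where 3.56% to 10.02% of all genes did in each direction. A list of 16 genes can hold 0 at such shares. Of 16 genes on the list of SRF and MRTF regulators, 0 of 16 were at least 2-fold lower or higher in Pcgf6KO against wildtype, 0 of 16 in the array labelled Pcgf6KO+ Pcgf6_flag against Pcgf6KO and 0 of 15 against wildtype. Srf read 7019 on the array labelled Pcgf6KO+ Pcgf6_flag, 5023 on the Pcgf6KO array and 5963 on the wildtype array, with a difference of -0.38 between Pcgf6KO and wildtype and 0.38 between the array labelled Pcgf6KO+ Pcgf6_flag and Pcgf6KO. Diaph1, a formin that assembles actin filaments, had the widest difference, 0.83 between the array labelled Pcgf6KO+ Pcgf6_flag and Pcgf6KO. Myocd, the muscle-restricted relative of the MRTFs, was well above background on the Pcgf6KO array only, at a signal of 88.7. It was at least 1.54-fold higher there than on the wildtype array. As this is a bound, whether Myocd passed 2-fold is not known.

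A list of 30 further YAP-TEAD targets held genes on both sides in Pcgf6KO. Against wildtype, 3 of 30 were at least 2-fold lower and 5 higher in Pcgf6KO, beside 3.56% and 6.61% of all genes. The median was 0.06. Nt5e, an ecto-nucleotidase, had a signal of 527 on the array labelled Pcgf6KO+ Pcgf6_flag, 2913 on the Pcgf6KO array and 816 on the wildtype array, and was 3.26-fold higher in Pcgf6KO than in wildtype. Anxa3, an annexin, was 2.97-fold higher, the ligand gene Tgfb2 2.76-fold, Igfbp3, which encodes an insulin-like growth factor binding protein, 2.39-fold and the kinase gene Nuak1 2.33-fold. Among the lower genes, the receptor kinase gene Axl was 2.73-fold lower in Pcgf6KO than in wildtype and Foxf2 at least 3.37-fold.

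Between the array labelled Pcgf6KO+ Pcgf6_flag and Pcgf6KO, 14 of 29 measured YAP-TEAD targets were lower and 0 higher, with a median of -0.89. Of all genes, 10.02% were lower and 6.15% higher in this comparison. Anxa3 was 8.78-fold lower, Nt5e 5.95-fold, Tgfb2 5.43-fold and Igfbp3 4.56-fold. This comparison and the one before share the Pcgf6KO array. Against wildtype, 9 of 30 were lower on the array labelled Pcgf6KO+ Pcgf6_flag and 0 higher, beside 6.28% and 5.83% of all genes. The median was -0.76. Axl was 10.3-fold lower and Thbs1, the matrix glycoprotein thrombospondin, 6.09-fold, beside 3.77-fold for the Hippo kinase gene Lats2, which is itself a YAP target.

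The 25 Hippo pathway and YAP-TEAD regulators examined mostly lay within 2-fold, as most genes on the arrays did. Over all genes, 3.56% were lower and 6.61% higher in Pcgf6KO against wildtype, 10.02% and 6.15% for the array labelled Pcgf6KO+ Pcgf6_flag against Pcgf6KO, and 6.28% and 5.83% against wildtype. In Pcgf6KO against wildtype, the cadherin gene Fat4 was 3.37-fold lower and Vgll1, a TEAD cofactor, was at least 2.96-fold higher, and the other 23 lay between. Fat4 read 61.5 on the Pcgf6KO array, near that array's floor of 53.4, and 189 on the wildtype array. The array labelled Pcgf6KO+ Pcgf6_flag was lower than Pcgf6KO for 3 of 25, with Amot 2.14-fold, Vgll4 2.05-fold and Dchs1 at least 3.21-fold lower, and Nf2, the gene of merlin, an upstream activator of the pathway, was 2.21-fold higher. Wwtr1, which encodes TAZ, read 3762 on the array labelled Pcgf6KO+ Pcgf6_flag, 6797 on the Pcgf6KO array and 5396 on the wildtype array, a difference of -0.96 between the first of these and Pcgf6KO. Against wildtype, Tead3 was 2.03-fold lower on the array labelled Pcgf6KO+ Pcgf6_flag, and Fat4 at least 2.17-fold.

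Of 14 genes of TGF-beta signalling, a pathway that induces Acta2 and Ctgf in fibroblasts, 2 were at least 2-fold lower in Pcgf6KO than in wildtype and 0 higher. These were Ltbp2, which encodes a matrix protein related to the latent TGF-beta binding proteins, 11.3-fold lower, and the ligand gene Tgfb3, 7.57-fold lower. The ligand gene Tgfb2 is counted in the YAP-TEAD list and not here. It was 2.76-fold higher in Pcgf6KO than in wildtype and 5.43-fold lower on the array labelled Pcgf6KO+ Pcgf6_flag than in Pcgf6KO. On the array labelled Pcgf6KO+ Pcgf6_flag 4 of 14 were lower than in Pcgf6KO and 5 of 14 lower than in wildtype. In either, 0 were higher. The shares of all genes lower were 3.56% in Pcgf6KO against wildtype and, for the array labelled Pcgf6KO+ Pcgf6_flag, 10.02% against Pcgf6KO and 6.28% against wildtype. The shares higher were 6.61%, 6.15% and 5.83% in the same order. On the array labelled Pcgf6KO+ Pcgf6_flag, the receptor gene Tgfbr2 was 4.10-fold lower than in Pcgf6KO. Tgfbi, an adhesion protein induced by the pathway, was 9.06-fold lower there, the coreceptor gene Tgfbr3 2.25-fold and Tgfb3 2.19-fold. Against wildtype, Tgfb3 was 16.5-fold lower, Ltbp2 differed by -3.42 on the log2 scale, and lower levels were also seen for Tgfbi at 4.66-fold, Tgfbr2 at 3.19-fold and Ltbp1 at 2.06-fold. The median of this list was -0.11 in Pcgf6KO against wildtype, which changed sign in 1 of 9 alternative settings, -0.17 for the array labelled Pcgf6KO+ Pcgf6_flag against Pcgf6KO and -0.39 against wildtype.

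Of 32 close relatives of the 10 genes 29 were measured, and their counts past 2-fold are to be read beside the shares over all genes given with the Hippo list. In Pcgf6KO against wildtype 2 of 29 were lower and 2 higher, for the array labelled Pcgf6KO+ Pcgf6_flag against Pcgf6KO 3 of 26 lower and 1 higher, and against wildtype 3 of 29 lower and 1 higher. Those past 2-fold included Wisp1, now Ccn4, a relative of Ctgf and Cyr61, which read 417 on the array labelled Pcgf6KO+ Pcgf6_flag, 3269 on the Pcgf6KO array and 4241 on the wildtype array. Wisp1 was 8.43-fold lower on the array labelled Pcgf6KO+ Pcgf6_flag than in Pcgf6KO, and Wisp2 (Ccn5) was at least 4.81-fold lower in Pcgf6KO than in wildtype. Among relatives of S100a4, the calgranulin gene S100a8 was at least 8.25-fold lower in Pcgf6KO than in wildtype and S100a3 2.06-fold higher. The Ankrd1 relative Ankrd2 was 2.04-fold higher in Pcgf6KO than in wildtype. For the array labelled Pcgf6KO+ Pcgf6_flag against Pcgf6KO, Ankrd2 was lower by at least 2.26-fold and S100a5 was 2.16-fold lower. The intermediate filament gene Gfap was 2.74-fold higher there, from a Pcgf6KO signal of 63.8 near that array's floor of 53.4. In contrast, S100a6 differed by -0.02, -0.20 and -0.23 and S100a11 by -0.15, 0.05 and -0.10. The transgelin relative Tagln2 differed by 0.24, -0.21 and 0.03 and the calponin relative Cnn3 by -0.01, -0.02 and -0.03 in the same order of comparisons.

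Because the cultures contained fibroblast feeders, a list of 20 fibroblast markers was read beside the 10 genes. In Pcgf6KO against wildtype 0 of 19 measured markers were at least 2-fold higher and 10 lower (median -1.01), and for the array labelled Pcgf6KO+ Pcgf6_flag against Pcgf6KO 10 of 16 were lower and 0 higher, with a median of -1.52. Against wildtype 16 of 19 were lower on the array labelled Pcgf6KO+ Pcgf6_flag and 0 higher, with a median of -2.84. The shares of all genes lower were 3.56%, 10.02% and 6.28% in the same order, and the shares higher 6.61%, 6.15% and 5.83%. The summed signal of the markers was 28.0 on the array labelled Pcgf6KO+ Pcgf6_flag, 34.8 on the Pcgf6KO array and 51.9 on the wildtype array, in units of each array's 75th percentile. The summed signal of the 10 genes was 41.3, 52.1 and 84.7 on the same arrays. A large part of the fibroblast sum came from the brightest markers, Fn1 and Sparc, which differed little. Fn1, the fibronectin gene, read 48888 on the array labelled Pcgf6KO+ Pcgf6_flag, 42421 on the Pcgf6KO array and 41086 on the wildtype array, and Sparc, a matricellular protein gene, read 61294, 53982 and 57441, so the sum understates the differences of the other markers.

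Col3a1, a fibrillar collagen gene, read 159 on the array labelled Pcgf6KO+ Pcgf6_flag, 1042 on the Pcgf6KO array and 5284 on the wildtype array, and was 39.2-fold lower on the array labelled Pcgf6KO+ Pcgf6_flag than in wildtype. Lox, the collagen cross-linking enzyme, was 16.5-fold lower in Pcgf6KO than in wildtype, and Prrx1, a mesenchymal homeobox gene, at least 37.1-fold. On the array labelled Pcgf6KO+ Pcgf6_flag, the markers Postn, Prrx1, Fap, Pdgfra, Pdgfrb and Lox were not well above background, and on the Pcgf6KO array Postn, Prrx1 and Fap were not. Lum was not well above background on any array. The 3 markers that did not pass 2-fold between the array labelled Pcgf6KO+ Pcgf6_flag and wildtype were Fn1 with 0.01, Sparc with -0.14 and Fap with a bound of -0.42, of which Fn1 and Sparc were chosen after their values were seen. The fibroblast list thus held members with large and with small differences, as the 10 genes did, but in other proportions. Between the array labelled Pcgf6KO+ Pcgf6_flag and wildtype, 16 of 19 markers and 4 of the 10 genes were lower.

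**Figure D5:**
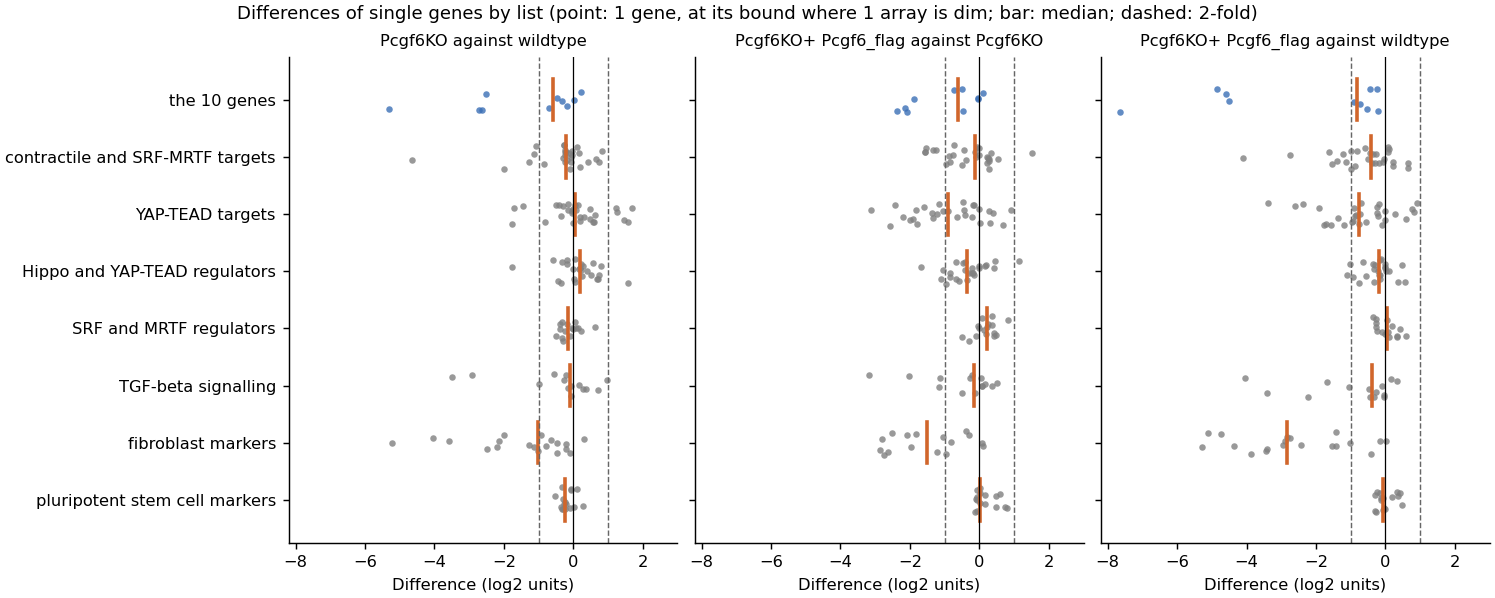
Log2 difference of single genes in 8 lists for the 3 comparisons, with 1 point per measured gene (at its bound where 1 array is not well above background), a bar at each list's median and dashed lines at 2-fold. Fibroblast markers had 10 of 19, 10 of 16 and 16 of 19 lower, pluripotency markers 0 of 16 in each, and SRF and MRTF regulators 0 throughout. Of all genes, 3.56%, 10.02% and 6.28% were lower in the same order, and 6.61%, 6.15% and 5.83% higher.

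The 16 pluripotency markers had 0 genes past 2-fold in any comparison. Over all genes, 3.56% were lower and 6.61% higher in Pcgf6KO against wildtype. For the array labelled Pcgf6KO+ Pcgf6_flag the shares were 10.02% and 6.15% against Pcgf6KO and 6.28% and 5.83% against wildtype. A list of 16 genes can hold 0 at such shares. The medians of the markers were -0.24 for Pcgf6KO against wildtype, 0.02 for the array labelled Pcgf6KO+ Pcgf6_flag against Pcgf6KO and -0.07 against wildtype. For that array, the median against Pcgf6KO changed sign in 3 of 9 alternative settings and that against wildtype in 2 of 9. Of 10 smooth muscle markers, 5 were well above background on every array (Cnn1, Smtn, Synm, Des and Actg2). The same held for 14143 of 20284 named genes, not counting the 10 described here. Pln was not well above background on any, and Myh11, the smooth muscle myosin heavy chain gene, was so only on the wildtype array, at a signal of 73.7. Smtn, the gene of the actin-associated smoothelin, read 20134 on the array labelled Pcgf6KO+ Pcgf6_flag, 16027 on the Pcgf6KO array and 10866 on the wildtype array. Of the measured markers, 2 of 9 were at least 2-fold lower in Pcgf6KO against wildtype (Actg2 and Lmod1). For the array labelled Pcgf6KO+ Pcgf6_flag, 1 of 7 was lower against Pcgf6KO (Kcnmb1) and 1 of 8 against wildtype (Actg2). In each comparison 0 were higher. The shares of all genes lower were 3.56%, 10.02% and 6.28% in the same order of comparisons, and the shares higher 6.61%, 6.15% and 5.83%. The smooth muscle sum was 8.63 on the array labelled Pcgf6KO+ Pcgf6_flag, 9.29 on the Pcgf6KO array and 8.58 on the wildtype array and was mostly that of Cnn1, itself one of the 10 genes, and Smtn.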

How the data were processed

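Gene expression was measured on 3 one-colour arrays labelled with Cy3, 1 for each group, and groups come from the genotype labels. The authors deposited scanner files that give a linear intensity for each spot. The software was Agilent Feature Extraction, version 11.5.1.1 per the file headers but 10.7 in the submitters' processing notes. Those intensities are background-subtracted. The deposited value table equals them for 55249 of 55249 probes with a single spot, within a relative tolerance of 1e-06, so it is linear and unscaled, and its column medians were 313 for the array labelled Pcgf6KO+ Pcgf6_flag, 273 for Pcgf6KO and 243 for wildtype.

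Control spots and 192, 158 and 141 of 59305 spots flagged as outliers on the same arrays were left out, spots of a probe were averaged, and 0 spots were saturated. Log2 intensity, computed here from the deposited intensity, was reduced by each array's 75th percentile. RefSeq accessions named 26762 of 55681 probes through the GRCm38.p6 table, and the array design is annotated on another build, so no gene coordinates from that table are given beyond the promoter windows. Each gene takes the value of its brightest probe among those well above background on at least 1 array. With 1 array per group a fixed 2-fold rule replaced any test. Precision is limited by the number of arrays.

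The 10 genes and the lists were chosen with earlier results of these data known. Names come from this set, not all of it printed: the 10 genes, Pcgf6, their relatives, up to 4 genes of largest difference per list and comparison, any gene past 2-fold where 5 or fewer in a list were (counted here also for 1 direction), and the 5 genes nearest to the median pattern, except where stated. Of 248 list symbols 8 were updated to current names. The calling rule was tested on simulated data made from the wildtype array. The noise added was about the spread of repeated spots, with no spread between cultures or slides. The simulation therefore cannot say how reliable a 2-fold difference between single arrays is. Alternatives were normexp (limma 3.58.1, offset 50), 4 other scalings (quantile, median, the 75th percentile over only those probes that every array measured, and the unscaled deposited values), dim probes included, a gene's probes averaged, outlier spots included, and a 1.5-fold or 3-fold threshold. Leaving out spots with a local-background flag was added after the data were examined. The tools were R 4.3.3 and Python 3.11.15 with pandas 2.3.3, numpy 2.4.6 and matplotlib 3.10.9. One gene of the wider YAP-TEAD list is counted there but not reported here by name.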

Additional observations from a re-analysis of the deposited data

How the results depend on the processing

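The 4 genes that were at least 2-fold lower, Acta2, Ankrd1, S100a4 and Tm4sf1, passed 2-fold in the same direction in each comparison under every alternative that gave them a value. When spots with a local-background flag were left out, Ankrd1 and Tm4sf1 had no value on all arrays, and 2 of the 8 remaining genes were lower in each comparison. The median difference was then -0.42 for Pcgf6KO against wildtype, -0.39 for the array labelled Pcgf6KO+ Pcgf6_flag against Pcgf6KO and -0.55 against wildtype. With the unscaled deposited values the median was -0.45 for Pcgf6KO against wildtype and -0.58 for the array labelled Pcgf6KO+ Pcgf6_flag against wildtype. Those values also shifted the median of all genes to 0.11, 0.09 and 0.20 in the 3 comparisons, and raised the share of higher genes among all genes past 2-fold to 66.0%, beside 48.1% with scaling, for the array labelled Pcgf6KO+ Pcgf6_flag against wildtype. Scaled to array medians, the median of all genes in that comparison was -0.14, Tagln reached -1.04 and 5 genes were lower. Normexp reduced the Tm4sf1 difference between the array labelled Pcgf6KO+ Pcgf6_flag and Pcgf6KO to a bound of -1.66, and against wildtype to -6.72. Over all settings, 85 recomputed counts and medians stayed within 1.5 times the reported count, or within 0.13 on the log2 scale of the reported median. The value 0.13 is the SD of a difference between single spots. The 8 that did not came from the setting without locally flagged spots and from the unscaled values. Of the single-gene differences, 234 stayed within 0.13 of the reported value and 30 did not. These 30 included Ankrd1, S100a4 and Tm4sf1 with normexp, for the array labelled Pcgf6KO+ Pcgf6_flag against Pcgf6KO. Because each group has 1 array, no replicate could be left out, and the planned slide block was not run, since it could not be fitted with 1 array on slide 2. No paired analysis was possible because each group has 1 array. Signals near background limit Tm4sf1 most.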

Other observations

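Other cell types were read through marker lists as well, with values given for the array labelled Pcgf6KO+ Pcgf6_flag, then Pcgf6KO, then wildtype. Epithelial markers had summed signals of 46.6, 65.2 and 43.0 in units of each array's 75th percentile, and 2 of 10 were at least 2-fold higher in Pcgf6KO than in wildtype. These were the keratin genes Krt19, 4.12-fold higher, and Krt8, 2.19-fold higher. Striated muscle markers had sums of 7.92, 16.3 and 10.1, with 4 of 12 higher and 1 lower in Pcgf6KO than in wildtype. Of all genes, 6.61% were higher and 3.56% lower in that comparison. The myosin heavy chain gene Myh7 had processed signals of 339, 2984 and 721 on the 3 arrays, and was 3.78-fold higher in Pcgf6KO than in wildtype and 9.48-fold lower on the array labelled Pcgf6KO+ Pcgf6_flag than in Pcgf6KO.

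Endothelial markers had sums of 7.09, 5.70 and 6.34, with 3 of 8 higher on the array labelled Pcgf6KO+ Pcgf6_flag than in Pcgf6KO, namely Vwf, the von Willebrand factor gene, 5.58-fold, the receptor gene Kdr 2.65-fold and Emcn 2.38-fold. Of all genes, 6.15% were higher in that comparison. Well above background on every array were 8 of the 10 markers. The same held for 14143 of 20284 named genes, not counting the 10 described here. Pecam1 read 3755, 3995 and 2430 and Tek 2980, 2550 and 2446, whereas Cdh5 and Tie1 were not well above background on any array. Blood cell markers had sums of 30.1, 22.1 and 25.2. The pan-leukocyte gene Ptprc was at least 2.95-fold higher on the array labelled Pcgf6KO+ Pcgf6_flag than in wildtype, and the macrophage lysozyme gene Lyz2 was at least 4.45-fold lower in Pcgf6KO than in wildtype, while Hba-a1, an alpha-globin gene with a near-identical copy, was 2.14-fold higher.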
